A study of Rattus norvegicus with 24 samples.

Results

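Of the 32883 rows of the hippocampal count table, 13838 passed the filter on low counts, and in 5 of these (0.0361%) the lowest rat of one line lay above the highest rat of the other. The loci described here are 3 of those 5, ENSRNOG00000055892, ENSRNOG00000022490 and ENSRNOG00000046533. They were chosen by their measured expression (CPM), because the ranges in bred Low Responder (bLR) and bred High Responder (bHR) rats do not overlap, and the difference between the lines is given as a description, without a test. All 3 passed the filter, ENSRNOG00000055892 only through the bLR rats. The sources used here pair none of the 3 identifiers with a gene name, a function or a position, and the identifiers are therefore used as they stand in the table.

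The rats were F0 animals of the 37th generation of selective breeding for locomotor activity in an unfamiliar environment, and each line is a single breeding colony. RNA from the whole hippocampus was sequenced in 6 bHR males, 6 bHR females, 6 bLR males and 6 bLR females, with 1 male and 1 female under each of 12 family labels (H02 to H12 in the bHR line, L01 to L10 in the bLR line). The study's methods state that the 24 rats came from as many distinct families, so a shared label is not taken to mean that rats are siblings. The labelled ages of male and female differed by 26 or 27 days in 10 of the 11 pairs used, and by 38 days in L06. Under the label H05 the female had a low RNA integrity number (RIN) of 6.3 and was set aside by the study, and values are over the other 23 rats (11 bHRs and 12 bLRs) unless stated. By the labels, males were 151 to 165 days old and females 188 to 192 days old. These ages are above those that the study's methods state for sacrifice. The sexes were dissected on separate days, so sex, age and day of dissection cannot be told apart, nor can selection and chance differences between the 2 colonies.

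The bHR and bLR lines are a model of temperament: bHRs explore an unfamiliar place and bLRs are inhibited in it. The hippocampus takes part in the response to novelty and in the regulation of emotion and stress. In lines bred apart for many generations, alleles can become fixed in a colony by selection or by drift, and a transcript's level can then differ between all animals of the lines rather than on average only. A difference without overlap between the lines can be all-or-none, where the transcript is not detected in one line. It can also be graded, where both lines express the transcript at different levels. Genotypes were not examined here, so whether fixed alleles underlie the loci described was not tested.

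Counts on genes ranged from 16824899 to 28443049 per rat. Expression is given as CPM, counts scaled to a library of 1e6 after TMM normalization, and 3 counts, taken as the floor of detection, stood for 0.0866 to 0.216 CPM. In the fit across all genes, 1.34% of the 13838 genes differed between the lines (FDR < 0.10, edgeR's quasi-likelihood test), 0.773% with higher expression in bLRs. Of the 50 cell type marker symbols, 12 could be matched to an identifier. The vesicular glutamate transporter Slc17a7, a marker of excitatory neurons, ran from 160 to 1094 CPM, the astrocyte gene Gfap from 105 to 743 CPM and the choroid plexus gene Folr1 from 2.39 to 55.2 CPM. Among the 9 lists only that of erythroid cells was matched to 80% or more (4 of 4 genes, summed level 49.6 to 4550 CPM in bHRs and 117 to 3893 CPM in bLRs), so the checks on the other lists are void. None of the 12 matched markers passed the test for lineage.

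ENSRNOG00000055892 was all-or-none. In the bHRs it had 0 counts in 10 of 11 rats and 1 count in the other, the male of family H12 (0.0425 CPM), which makes 1 count over all 11 libraries. The bHR female left out by the study had 0 counts as well. In the bLRs it had 52 to 200 counts, with a lowest level of 1.89 CPM (the female of L06), a median of 5.49 CPM and a highest level of 10.2 CPM (the female of L10).

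Every bLR rat was thus above the floor and every bHR rat was at or under it. This held for 1 of the 13838 tested genes (0.00723%), and the reverse pattern held for 0 genes. With TMM scaling, the lowest bLR rat was at least 9.95-fold above the highest bHR floor (3 counts, 0.190 CPM). The bLR mean of 5.31 ± 2.49 CPM (SD, n = 12) was at least 27.95-fold above that floor. For the lowest bLR rat the fold was 9.08 with RLE size factors and 16.1 with CPM on the total count. In bulk tissue, fewer cells of a type and less RNA per cell cannot be told apart. The counts hold only reads that map uniquely to the reference genome, and whether such mapping at this locus differs between the lines was not tested.

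**Figure D1:**
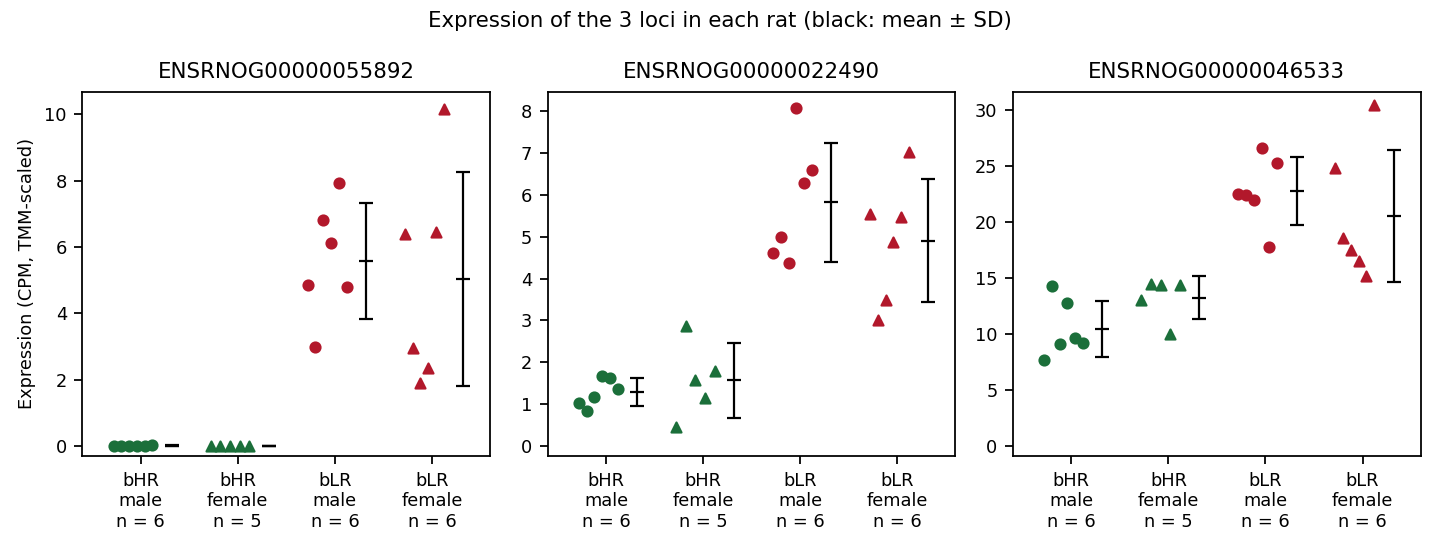
TMM-scaled CPM (y axis) of each locus in each of the 23 rats, by line and sex (x axis, green bHR, red bLR, circles males, triangles females), with the subgroup mean ± SD in black. ENSRNOG00000055892 lies at or next to 0 in all bHRs, whereas ENSRNOG00000022490 and ENSRNOG00000046533 were expressed in both lines at levels that do not overlap.

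Within the bLRs, ENSRNOG00000055892 was far from uniform. In the males it ran from 2.98 CPM (L03) to 7.92 CPM (L09), with a median of 5.49 CPM. In the females it ran from 1.89 CPM (L06) to 10.2 CPM (L10), with a median of 4.67 CPM, so the spread was wider in females (coefficient of variation, CV, 64.0% against 31.3% in males).

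The females of L06, L07 and L03 were low, at 1.89, 2.34 and 2.95 CPM, and those of L01, L09 and L10 were high, at 6.39, 6.46 and 10.2 CPM. Rats with the same family label could lie far apart: in L06 the male had 6.81 CPM and the female 1.89 CPM, and in L10 the male had 4.80 CPM and the female 10.2 CPM. The CV over all 12 bLRs was 46.8%, where counting alone would give 9.61%. The 2032 tested genes whose bLR mean was within 1.5-fold of this locus had a median CV of 34.5%, and 27.4% of them had a CV as large.

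ENSRNOG00000022490 was graded. In the bHRs it was detected in every rat, from 0.452 CPM (the female of H02, 14 counts) through a median of 1.36 CPM to 2.88 CPM (the female of H04, 65 counts). In the bLRs it ran from 3.01 CPM (the female of L03, 100 counts) through a median of 5.23 CPM to 8.08 CPM (the male of L07).

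The 11 bHRs averaged 1.41 ± 0.63 CPM (SD) and the 12 bLRs averaged 5.36 ± 1.46 CPM (SD), a ratio of 3.79 and a Log2FC of 1.94 (SE 0.18). The gap was narrow all the same, with the lowest bLR 1.05 times the highest bHR, and it rested on 2 females. In males the ranges were far apart, 0.834 to 1.68 CPM in bHRs and 4.37 to 8.08 CPM in bLRs. In females they were 0.452 to 2.88 CPM and 3.01 to 7.02 CPM. Ranges did not overlap with bLRs higher in 0.188% of all tested genes in males alone and in 0.369% in females alone. Without the bHR female of H04, the lowest bLR was 1.68 times the highest bHR.

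The spread of ENSRNOG00000022490 was larger in relation to its level in bHRs (CV 44.4%) than in bLRs (27.3%). Counting gives a larger share of it in bHRs, with an expected CV of 17.5% at a mean of 32.6 counts, than in bLRs, with 9.51% at 110.5 counts. The median CV was 41.6% over 1512 tested genes of like level in bHRs and 34.4% over 2051 in bLRs. Ranges that do not overlap require a limited spread, so these CVs are in part set by the choice of the loci and are given as a description.

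ENSRNOG00000046533 was the most abundant of the 3 loci and had the smallest ratio between the lines. It ran from 7.65 CPM (the male of H02) through a median of 12.7 CPM to 14.5 CPM (the female of H04) in bHRs. In bLRs it ran from 15.2 CPM (the female of L09) through a median of 22.2 CPM to 30.5 CPM (the female of L10).

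The means of 11.7 ± 2.60 CPM (SD, n = 11) and 21.6 ± 4.64 CPM (SD, n = 12) had a ratio of 1.85 and a Log2FC of 0.84 (SE 0.12). In males the ranges were 7.65 to 14.2 CPM and 17.8 to 26.6 CPM, and in females 10.01 to 14.5 CPM and 15.2 to 30.5 CPM. Again the closest rats were females: the lowest bLR lay 1.05 times above the highest bHR. This separation depended on the scaling. With CPM on the total count the lowest bLR was 0.841 times the highest bHR, and with RLE size factors 0.974 times, so the ranges overlapped under both. The ranges of ENSRNOG00000055892 and ENSRNOG00000022490 stayed apart under both scalings. The difference in mean between the lines moved by 0.03 on the log2 scale with the total count and by -0.02 with RLE size factors for every gene.

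The bHR female left out for its RIN had 0.918 CPM of ENSRNOG00000022490 and 3.28 CPM of ENSRNOG00000046533 when scaled with the other 23 rats. The first value lay inside the range of the bHRs kept. The second lay below all 11 of them, farther from the bLRs. No range of the 3 loci met that of the other line with this rat included.

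**Figure D2:**
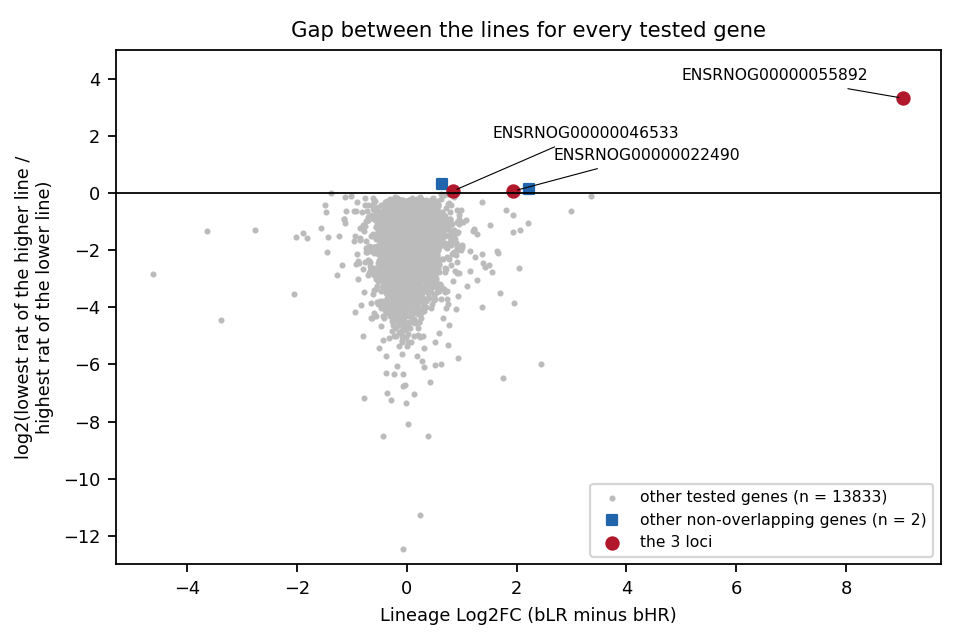
For each of the 13838 tested genes, the lineage Log2FC (x axis, bLR minus bHR) and the log2 ratio of the lowest rat of the higher line to the highest rat of the lower line (y axis, counts under 3 set to 3). The fitted Log2FC of ENSRNOG00000055892 depends on how counts of 0 are treated and is no measured size. Points above the black line do not overlap: ENSRNOG00000055892 lies at 3.31, whereas ENSRNOG00000022490 and ENSRNOG00000046533 lie at 0.06 and 0.07, just above the line.

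Apart from these loci, 2 tested genes had ranges that did not overlap with TMM scaling, and both were higher in bLRs. With CPM on the total count, 3 genes in all did not overlap (2 of them among the loci described here), and with RLE size factors 6 did not (again 2 of them), 5 of these with higher expression in bLRs. The 2 other genes with TMM scaling were ENSRNOG00000037160, with a lowest bLR 1.25 times the highest bHR (14.0 ± 1.66 and 22.5 ± 1.95 CPM, SD, n = 11 and 12), and ENSRNOG00000017412 (AABR07001512.1), with 1.10 times (0.722 ± 0.536 and 3.06 ± 0.56 CPM). Just outside the rule were ENSRNOG00000058637, higher in bHRs, with a ratio of 0.988, ENSRNOG00000018964 with 0.974 and ENSRNOG00000020906 (Pola2, a subunit of DNA polymerase alpha) with 0.969. Measured by this ratio, ENSRNOG00000022490 and ENSRNOG00000046533 sat closer to the genes just outside than to ENSRNOG00000055892.

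Sex was not used to choose the loci and was tested. No sex difference passed the test in any of the 3, where 49 of all tested genes (0.354%) did, and 19 with family as a replicate block. The Log2FC of females against males was -0.12 for ENSRNOG00000055892 (95% interval -0.68 to 0.44, FDR = 0.877, edgeR), 0.09 for ENSRNOG00000022490 (-0.26 to 0.44, FDR = 0.848) and 0.15 for ENSRNOG00000046533 (-0.10 to 0.39, FDR = 0.629). The bHRs at 0 or 1 count carry no information on sex for ENSRNOG00000055892, and its value rests on the 12 bLRs.

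The lineage difference was also not shown to depend on sex. For ENSRNOG00000046533 the ratio of the bLR to the bHR mean was 2.18 in males and 1.55 in females, and the interaction was -0.49 on the log2 scale (SE 0.22, unadjusted p = 0.0343, FDR = 0.9999, edgeR). Subgroup means of ENSRNOG00000046533 were 10.4 CPM in bHR males, 13.2 CPM in bHR females, 22.7 CPM in bLR males and 20.5 CPM in bLR females, so the females lay between the males of the 2 lines. For ENSRNOG00000022490 the ratio was 4.53 in males and 3.12 in females, with an interaction of -0.47 (SE 0.35, unadjusted p = 0.199, FDR = 0.9999, edgeR). The interaction of ENSRNOG00000055892 rests on bHRs at the floor and is void. Over all tested genes, 0 interactions (0%) passed at FDR < 0.10 in edgeR, in limma-voom and in DESeq2, and 325 (2.35%) had an unadjusted p under 0.05.

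The rule used no RNA metric and no behavior, although by asking for ranges that do not overlap it limited the spread within a line. Relations with RNA metrics and behavior were tested within each line after centring each sex, with 100000 permutations within sex. With 10 measures and 5 combinations of locus and line (ENSRNOG00000055892 has no bHR values to relate), 50 relations were computed and adjusted together, and 2 of them passed at an adjusted p under 0.10. In bLRs, ENSRNOG00000022490 rose with the percentage of reads from ribosomal RNA (%rRNA), with r = 0.89 (permutation p = 0.00014, adjusted 0.0070) and rho = 0.93 (permutation p = 0.00013, adjusted 0.0065, n = 12). Its 2 lowest bLR rats, the females of L03 and L06, had 1.36% and 1.45% rRNA, and its highest, the male of L07, had 3.98%. Without the 2 rats farthest from the median of %rRNA, r was 0.83 and the relation no longer passed (permutation test, adjusted p = 0.338).

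**Figure D3:**
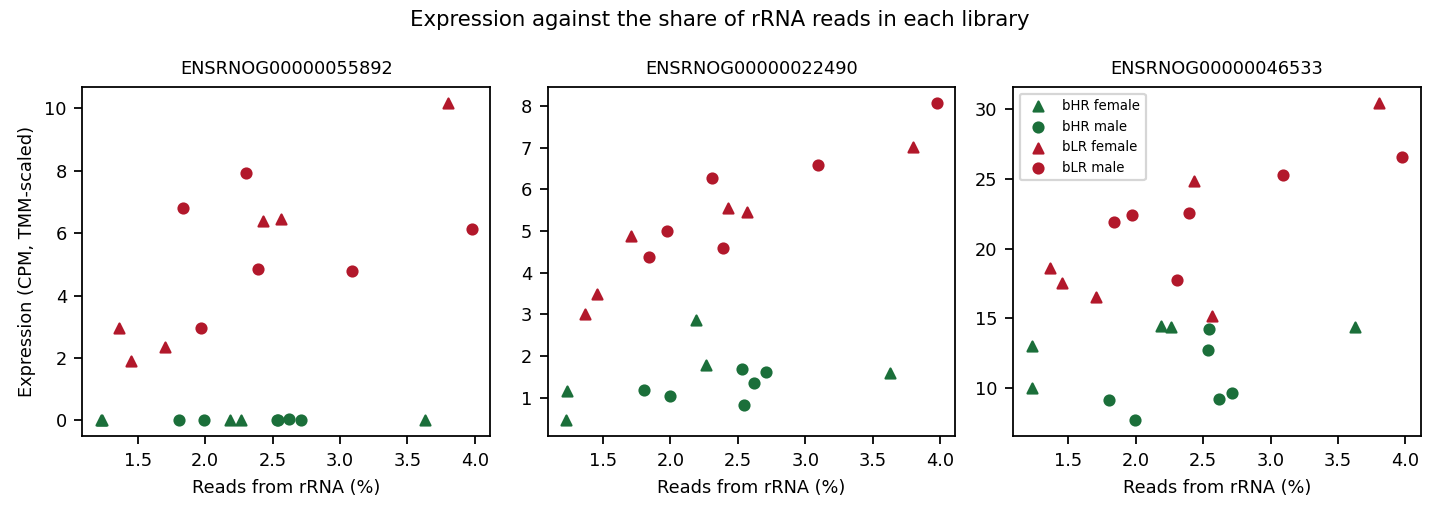
TMM-scaled CPM (y axis) of each locus against the percentage of rRNA reads (x axis) in the 23 rats, by line and sex. In bLRs the level of ENSRNOG00000022490 follows %rRNA with r = 0.89. The lines are apart at every %rRNA because the loci were chosen for ranges that do not overlap.

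Relations with %rRNA were widespread in these libraries. Over all 13838 tested genes the median absolute r with %rRNA was 0.63 within bLRs and 0.72 within bHRs, and 10.3% of genes had an absolute r as large as that of ENSRNOG00000022490 in bLRs. For ENSRNOG00000055892 in bLRs r was 0.67 (permutation p = 0.0252, adjusted 0.158), matched or exceeded by 45.8% of genes. For ENSRNOG00000046533 r was 0.68 in bLRs (adjusted 0.158) and 0.48 in bHRs (adjusted 0.364), and for ENSRNOG00000022490 in bHRs it was 0.51. %rRNA was a term of the model that gave the Log2FCs, and its part in the differences within a line was not tested further.

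The other relation that passed was that of ENSRNOG00000046533 with RNA concentration in bHRs, with r = -0.69 (permutation p = 0.00258, adjusted 0.0645) and rho = -0.63 (permutation p = 0.0147, adjusted 0.147, n = 11). It rested on a few rats: without the 2 farthest from the median concentration r was -0.29, and with the low-RIN bHR female included it was -0.02. Of all tested genes, 48.7% had an absolute r with RNA concentration as large in bHRs. By rho, the relation of ENSRNOG00000022490 with RNA concentration in bLRs also passed, with rho = -0.85 (permutation p = 0.00097, adjusted 0.0242). Its r was -0.69 (permutation p = 0.0145, adjusted 0.151), matched or exceeded in size by 28.9% of all tested genes in bLRs.

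The relation of ENSRNOG00000055892 with RNA concentration in bLRs was as large in size but did not pass, with r = -0.73 (permutation p = 0.00964, adjusted 0.151) and rho = -0.66 (permutation p = 0.0282, adjusted 0.179). It passed without subtracting the sex means (r = -0.74, permutation test, adjusted p = 0.0317). With sex means subtracted, 21% of all tested genes had an absolute r with RNA concentration as large in bLRs. ENSRNOG00000046533 in bHRs had a larger r with library size than with RNA concentration, -0.76 (permutation p = 0.0151, adjusted 0.151, rho = -0.81, adjusted 0.1003), which did not pass.

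No relation of the 3 loci with behavior within a line passed, and none of the 20 had an unadjusted permutation p under 0.05 for r. The LocoScore, the activity count on which the lines were selected, ran from 1533 to 2949 in the bHRs and from 23 to 101 in the bLRs. The study defines it as lateral plus rearing counts. The labels do not add up to it in the bLR male of L09 (101) and the bHR females of H04, H11 and H12. The labelled LocoScore was used as it stands. Its r within bLRs was 0.39 for ENSRNOG00000055892, 0.35 for ENSRNOG00000022490 and -0.30 for ENSRNOG00000046533, and within bHRs -0.45 for ENSRNOG00000022490 and -0.15 for ENSRNOG00000046533. These values rested on few rats: without the 2 farthest from the median LocoScore, r turned to 0.38 for ENSRNOG00000046533 in bLRs and to 0.23 for ENSRNOG00000022490 in bHRs. It was then 0.16 for ENSRNOG00000055892 and 0.34 for ENSRNOG00000022490 in bLRs, and -0.50 for ENSRNOG00000046533 in bHRs. The largest behavioral r in size was -0.56, between ENSRNOG00000046533 and distance on the elevated plus maze (EPM) in bHRs (permutation p = 0.101, adjusted 0.371). With 11 or 12 rats in a line, an r of that size did not pass.

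The relation with the erythroid genes (Hbb, Hba-a1, Hba-a2 and Alas2, which make and supply hemoglobin in red blood cells) did not pass for any of the 3 loci. It was largest for ENSRNOG00000022490, with r = 0.66 in bLRs (permutation p = 0.0284, adjusted 0.158) and 0.61 in bHRs (adjusted 0.371). For ENSRNOG00000055892 it was 0.21 in bLRs, and for ENSRNOG00000046533 0.13 in bLRs and 0.54 in bHRs.

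The male and the female of a family label did not resemble each other detectably in these loci, in a test that takes the labels as they stand. After centring each subgroup, r between male and female was -0.03 for ENSRNOG00000055892 over 6 bLR families (exact permutation p = 0.963, rho -0.20, exact permutation p = 0.714). It was 0.10 for ENSRNOG00000022490 over 11 families (exact permutation p = 0.816, rho -0.04, exact permutation p = 0.929). It was 0.37 for ENSRNOG00000046533 (exact permutation p = 0.218, adjusted over the 3 loci 0.655, rho 0.50, exact permutation p = 0.0956, adjusted 0.287). The same r had a median of 0.22 over all tested genes in 11 families (interquartile range -0.02 to 0.39) and 0.27 in the 6 bLR families, so the values of ENSRNOG00000055892 and ENSRNOG00000022490 lay below the median gene and that of ENSRNOG00000046533 above it. Without the 2 males farthest from the median, r was -0.97 for ENSRNOG00000055892 over 4 families, 0.49 for ENSRNOG00000022490 and 0.43 for ENSRNOG00000046533.

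Set beside each other within a subgroup, the loci moved together in part. In bLRs, r was 0.65 between ENSRNOG00000055892 and ENSRNOG00000022490, 0.44 between ENSRNOG00000055892 and ENSRNOG00000046533 and 0.48 between ENSRNOG00000022490 and ENSRNOG00000046533 (n = 12). In bHRs, r was 0.15 between ENSRNOG00000022490 and ENSRNOG00000046533 (n = 11). These points share library, depth and the %rRNA described above, and they are given as a description.

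Over all tested genes, those whose pattern was most like ENSRNOG00000055892 in the 12 bLRs were ENSRNOG00000050034 (r = 0.92), ENSRNOG00000054149 (r = 0.91) and ENSRNOG00000007632 (r = 0.91). ENSRNOG00000050034 stands 340 rows before ENSRNOG00000055892 in the table and was itself higher in bLRs (Log2FC = 1.39, FDR = 0.0155, edgeR), whereas the others did not pass the lineage test. The most opposed patterns were those of ENSRNOG00000009580 (r = -0.94) and ENSRNOG00000012499 (r = -0.92).

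For ENSRNOG00000022490, the most like patterns over 23 rats were those of ENSRNOG00000013465 (r = 0.85), ENSRNOG00000011155 (r = 0.85) and ENSRNOG00000055777 (r = 0.84), none of which passed the lineage test. The most opposed were ENSRNOG00000050714 (r = -0.87) and ENSRNOG00000018906 (r = -0.84). ENSRNOG00000018906 was higher in bLRs (Log2FC = 1.65, FDR = 8.28e-05, edgeR), so it moved with ENSRNOG00000022490 between the lines and against it within them.

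For ENSRNOG00000046533, the most like patterns were those of ENSRNOG00000020151 (r = 0.87, 156 rows after it in the table), ENSRNOG00000010539 (r = 0.71) and ENSRNOG00000052173 (Ranbp3l, r = 0.71). The bLR female of L10 was the highest rat for each of them and for ENSRNOG00000046533. In that rat ENSRNOG00000020151 had 8.39 CPM, where the next rat had 1.73 CPM, and Ranbp3l had 44.4 CPM, where the next had 9.37 CPM. Without that rat, r was 0.84, 0.61 and 0.59. The most opposed were ENSRNOG00000003993 (r = -0.75) and ENSRNOG00000011713 (r = -0.71).

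ENSRNOG00000055892 and ENSRNOG00000046533 stand 2 rows apart in the table, whose rows follow genome order where this could be checked. The row between them, ENSRNOG00000060719, had 1 to 23 counts per rat and was not tested, with 128 counts over the bHRs and 95 over the bLRs. The 5 nearest tested rows on each side of the pair were set against the share of genes called over the whole table (1.34%). Of these 10 neighbours, 3 differed between the lines, all with higher expression in bLRs, and 5 had an unadjusted p under 0.05. Their median absolute Log2FC was 0.34, where the median over all tested genes was 0.10. The count was 0 in males alone and in females alone, where 18 and 8 genes were called over the whole table, against 185 in all rats. It was 1 without the technical covariates (56 genes called in all), 1 without the bLR male of L09 (160 genes) and 5 without the bHR female of H12 (436 genes).

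The neighbour with the largest difference was ENSRNOG00000057214, 14 rows after ENSRNOG00000055892. It had 0.226 to 2.38 CPM in bHRs (median 0.974) and 1.38 to 7.22 CPM in bLRs (median 3.54), with a Log2FC of 1.93 (SE 0.25, FDR = 5.47e-05, edgeR). The lines overlapped, since the lowest bLR was 0.582 times the highest bHR.

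ENSRNOG00000042971, 2 rows before ENSRNOG00000055892, had a Log2FC of 0.79 (SE 0.19, FDR = 0.0381, edgeR) with 4.85 to 25.1 CPM in bHRs (median 11.5) and 8.72 to 46.1 CPM in bLRs (median 20.3). ENSRNOG00000054414 had a Log2FC of 0.90 (SE 0.24, FDR = 0.0888, edgeR) with 0.743 to 5.82 CPM in bHRs (median 1.68) and 1.71 to 9.96 CPM in bLRs (median 4.08). Both overlapped widely. The row next to ENSRNOG00000055892, ENSRNOG00000052109, had a Log2FC of 0.53 (SE 0.18) and did not pass (FDR = 0.253, edgeR).

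**Figure D4:**
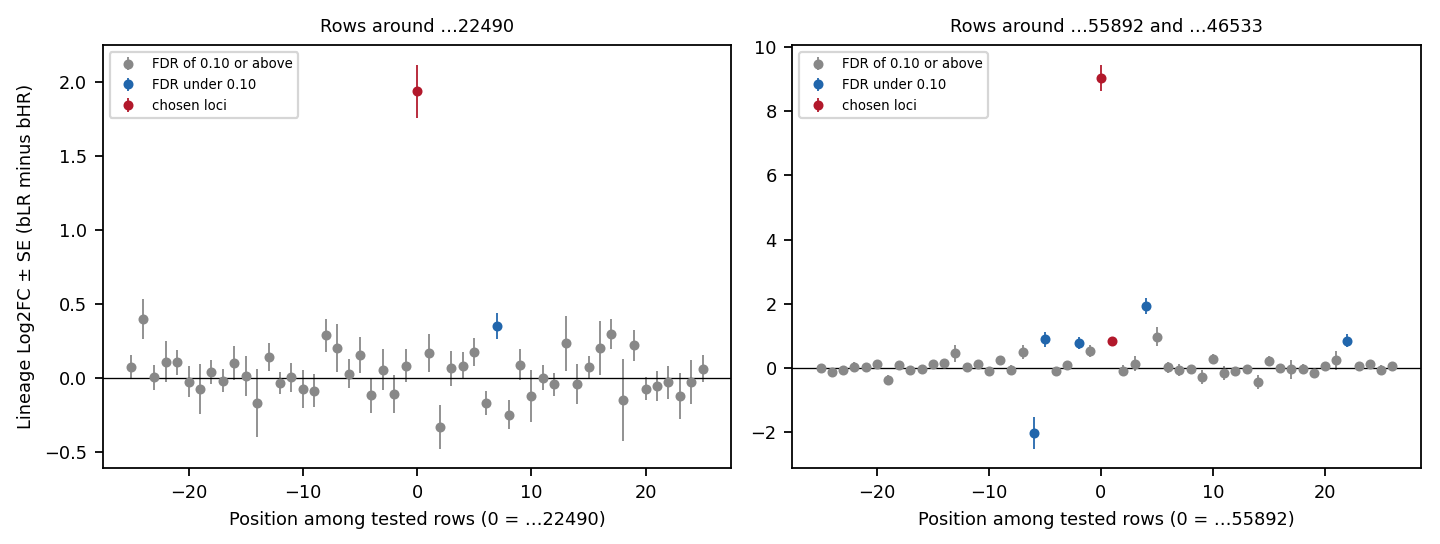
Lineage Log2FC ± SE (y axis, bLR minus bHR) of the tested rows up to 25 on each side (x axis, position among tested rows) of ENSRNOG00000022490 (left) and of ENSRNOG00000055892 (right, with ENSRNOG00000046533 at position 1). Of the 5 rows called for lineage (blue) around ENSRNOG00000055892, 3 stand up to 6 tested rows before it, 1 stands 4 tested rows after it and 1 stands 22 after it. The plot around ENSRNOG00000022490 holds 1 called row.

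Over the whole table, 13828 windows of 11 consecutive tested rows can be laid. The window with the most rows called for lineage held 6 of them, and it was 1 window that contained ENSRNOG00000055892 and ENSRNOG00000046533. As these were chosen for the same contrast, the windows were laid again without the 3 loci. Then 4 called rows was the highest count anywhere, reached by 7 of 13825 windows. Of these, 3 overlapping windows lay in this stretch and 4 elsewhere in the table.

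The sixth tested row before ENSRNOG00000055892, ENSRNOG00000057212, is named here after its values were seen. It went the other way, higher in bHRs (Log2FC = -2.02, SE 0.50, FDR = 0.0468, edgeR). All 11 bHRs had 22 to 83 counts. In the bLRs it had 0 counts in 6 of 12 rats, which were the males and females labelled L01, L03 and L06.

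Under the other 3 bLR family labels ENSRNOG00000057212 was detected in most rats. The L07 female had 26 counts and the L07 male 25. The L09 female had 4 counts and the L09 male 38, and the L10 female had 2 counts and the L10 male 30. The 6 bLR rats at 0 thus carried 3 of the 6 bLR family labels, whereas ENSRNOG00000055892 was above the floor under all 6.

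**Figure D5:**
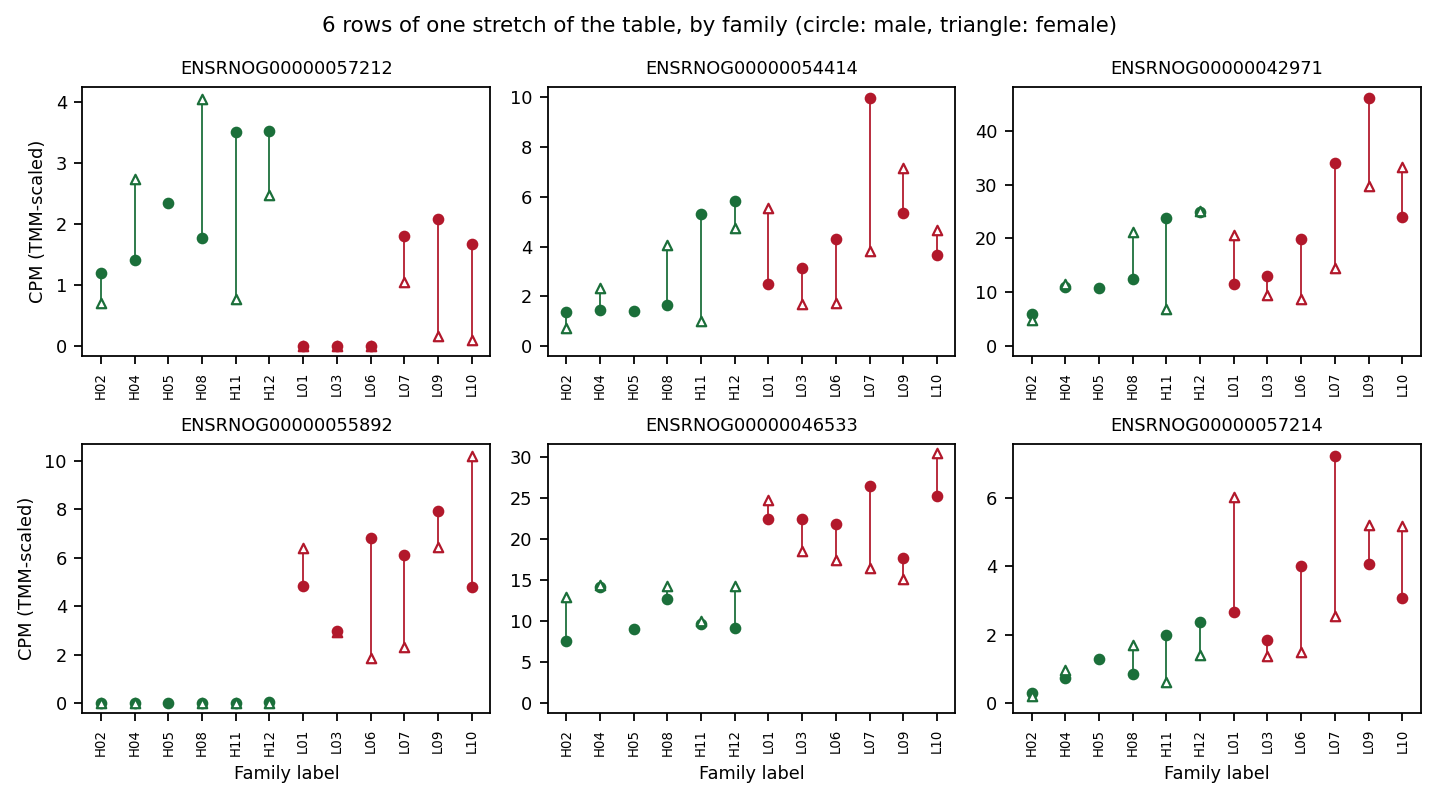
TMM-scaled CPM (y axis) by labelled family (x axis) of ENSRNOG00000055892 and ENSRNOG00000046533 and of 4 rows near them in the table, with each line joining the male (circle) and the female (triangle) of a label. ENSRNOG00000055892 is at or next to 0 in all bHR families and at 1.89 to 10.2 CPM in the bLRs, whereas ENSRNOG00000057212 is at 0 in L01, L03 and L06.

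The rows around ENSRNOG00000022490 were examined in the same way. Of its 10 nearest tested rows, 0 differed between the lines by edgeR (0.0% against 1.34% over all tested genes), and 1 had an unadjusted p under 0.05. DESeq2, limma-voom and each rat left out in turn also called 0. Among the 25 nearest on each side, 1 row passed, ENSRNOG00000006894, which was 7 tested rows away and had a Log2FC of 0.35 (SE 0.09, FDR = 0.0424, edgeR). The median absolute Log2FC of the 10 nearest rows was 0.11, against 0.10 over all tested genes.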

How the data were processed

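Per the labels and the study's methods, the libraries held poly-A RNA read from both ends. The authors mapped reads to Rnor6 (STAR 2.7.3a), retained unique hits and summed them by strand over Ensembl genes (Subread 2.0.0), and they deposited the resulting raw counts. Reads that match several places are absent from them, and whether the 3 loci have near-identical copies was not tested. None of the 24 libraries was identical to another.

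From the counts, genes that reached 1 CPM in 25% or more of the rats (6 of 23) were fitted with edgeR 4.0.16 in R 4.3.3 (TMM; lineage, sex, %rRNA and %intergenic, or lineage, sex, %rRNA and the interaction), Benjamini-Hochberg adjusted over 13838 genes. Standard errors are the Log2FC over the root of the F statistic, and 95% intervals use 18 residual degrees of freedom. limma 3.58.1 and DESeq2 1.42.0 were alternatives. Correlations used log2 CPM with a prior count of 2 (Python 3.11.15, scipy 1.17.1). The fits were tested on simulated data.

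The members, lists and tests were chosen with earlier results of these data known. Named genes are the 3 loci, other non-overlapping genes, 3 just outside, the 3 most and 2 least alike in pattern, and up to 3 called neighbours around each. ENSRNOG00000057212, ENSRNOG00000052109, ENSRNOG00000060719 and ENSRNOG00000006894 were named outside this rule, after their values were seen. No position matched the loci, so neighbours were taken by row: on chromosome 1, 1219 of 1220 adjacent rows with an annotated start ascended. Family labels, used as they stand, pair a male and a female. Replicates are separate rats.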

Additional observations from a re-analysis of the deposited data

Results flagged for a closer look

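For ENSRNOG00000057212, the bLR female of L07 stood apart from the other 5 bLR females, with 1.05 CPM against 0.173 CPM in the next, a gap larger than Dixon's 95% limit relative to the range. The male with the same family label had 25 counts and the rat itself 26. This was 1 of 26 subgroups examined over the 3 loci and 4 neighbouring rows. Subgroups with at most 3 counts in every rat were not examined. Chance gives such a gap in about 5% of subgroups of normally distributed values, a rate that need not hold for this row, with its counts of 0. The subgroups not examined were the bHR males and females of ENSRNOG00000055892, in which the male of H12 had 1 count and the other rats 0. No examined subgroup of ENSRNOG00000055892, ENSRNOG00000022490 or ENSRNOG00000046533 held such a rat.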

How the results depend on the processing

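The Log2FC between the lines kept its sign for the 3 loci in every alternative. For ENSRNOG00000055892 the fitted value was 7.60 with limma-voom and 9.04 with edgeR. With 1 count over all bHRs, neither is a measured size or a bound. On the log2 scale, the gap of ENSRNOG00000046533 turned to -0.25 with CPM on the total count and -0.037 with RLE size factors. With each rat left out, the gap of ENSRNOG00000022490 ran from 0.064 to 0.75, and that of ENSRNOG00000046533 from 0.068 to 0.19. No alternative changed a call for sex or the interaction of the 3 loci. With family as a replicate block, the paired sex difference was 0.17, -0.02 and 0.12 for ENSRNOG00000055892, ENSRNOG00000022490 and ENSRNOG00000046533. Of the 10 rows around ENSRNOG00000055892, 1 was called without technical covariates, 0 in each sex alone and 1 to 5 with a rat left out (lowest without the bLR male of L09, highest without the bHR female of H12). With 25 rows on each side, 5 were called there and 1 around ENSRNOG00000022490, where 10 rows on each side also gave 1. Without subtracting sex means, relations with RNA concentration were r = -0.74 for both ENSRNOG00000055892 and ENSRNOG00000022490 in bLRs, both past the threshold, and -0.47 for ENSRNOG00000046533 in bHRs, which did not pass. With sex means subtracted, the latter was -0.69, and it was -0.022 with all 24 rats and -0.29 without the 2 farthest. Without the 2 farthest, ENSRNOG00000022490 kept r = 0.83 with %rRNA but not its call. Genes called for lineage numbered 185, and 8 to 436 over the alternatives (97 without the bHR male of H02, 436 without the bHR female of H12), and for sex 49, and 13 to 159. The causes were not tested. Depth limits ENSRNOG00000055892 in bHRs to the floor of 3 counts.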
